A study of Mus musculus with 2 samples.

Results

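Immediate early genes are switched on within minutes of a growth factor, cytokine or stress signal without new protein synthesis, and many of them encode transcription factors. Fos, Jun and Atf3 proteins belong to the basic leucine zipper class and pair with one another as AP-1 or related dimers. Egr1 and the Krüppel-like factors (Klf) are zinc finger proteins that bind GC-rich DNA, and Myc pairs with Max on E-box elements and drives genes of ribosome making and growth. In liver these genes are known for their rapid response to partial hepatectomy, injury and fasting or feeding signals.

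The 10 genes followed here are Fos, Jun, Junb, Jund, Atf3, Egr1, Klf4, Klf6, Klf10 and Myc, taken by name from a deposited table of 21936 mouse genes, with each name found once. The table holds RNA sequencing of bulk liver in 2 libraries. The first was made from hnRNPK flox/flox Alb-Cre animals (the knockout) and the second from hnRNPK flox/flox animals (the control), so that floxed Hnrnpk alleles are common to both genotypes and only the Cre differs. In Alb-Cre animals the albumin promoter drives Cre recombinase in hepatocytes, and which other liver cells lost the gene was not measured here. The series title calls the genotypes wild type and hnRNPK-MKO, and the labels give neither age, sex nor the number of animals in a library.

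The knockout library held 12176239 counted reads and the control library 12428975. Hnrnpk, the targeted gene, had 1411 reads (FPKM 17.9) in the knockout and 2559 reads (FPKM 31.8) in the control, 0.567 of the control level with a 95% counting interval of 0.531 to 0.605. FPKM divides a read count by the length of the gene and the total of the library, so that levels of different genes can be compared. With 1 library per genotype there is no spread between animals, so no test was made and no p-value is given. Each fold is knockout over control after TMM scaling, and its exact Clopper-Pearson 95% interval covers counting error alone, not spread between animals. The interval takes reads as separate molecules, which they need not be, so the true counting error may be larger. Genes were evaluated where at least FPKM 1 and 20 reads were reached in the library with the higher level, and a gene is called higher or lower when the fold was at least 2 or at most 0.5.

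The start regions of Jun, Junb and Klf6 are shown because these genes differed by close to 2-fold in the same direction between the libraries. Each runs from 250 bases before to 50 bases after the RefSeq start on the gene's own strand (RefSeq, GRCm38.p6), at chr4:95052173-95052472 on the minus strand for Jun, chr8:84978699-84978998 on the minus strand for Junb and chr13:5861239-5861538 on the plus strand for Klf6. Capitals mark matches, on either strand, to TGACATCA (a variant of the cAMP response element), to TGACG (its half-site), to CCAAT (the CAAT box), to CACGTG (the E-box) and to the MEF2 site.
Jun: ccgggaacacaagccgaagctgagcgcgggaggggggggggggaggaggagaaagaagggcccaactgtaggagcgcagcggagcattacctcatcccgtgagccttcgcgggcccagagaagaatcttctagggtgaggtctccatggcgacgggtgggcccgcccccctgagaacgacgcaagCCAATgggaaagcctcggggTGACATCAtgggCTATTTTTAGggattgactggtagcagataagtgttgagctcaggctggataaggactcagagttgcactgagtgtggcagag
Junb: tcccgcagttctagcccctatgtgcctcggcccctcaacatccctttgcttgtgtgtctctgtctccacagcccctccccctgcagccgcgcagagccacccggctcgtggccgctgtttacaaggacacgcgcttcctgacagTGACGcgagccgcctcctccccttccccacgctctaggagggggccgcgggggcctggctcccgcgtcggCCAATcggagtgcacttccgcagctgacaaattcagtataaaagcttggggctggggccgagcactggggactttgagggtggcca
Klf6: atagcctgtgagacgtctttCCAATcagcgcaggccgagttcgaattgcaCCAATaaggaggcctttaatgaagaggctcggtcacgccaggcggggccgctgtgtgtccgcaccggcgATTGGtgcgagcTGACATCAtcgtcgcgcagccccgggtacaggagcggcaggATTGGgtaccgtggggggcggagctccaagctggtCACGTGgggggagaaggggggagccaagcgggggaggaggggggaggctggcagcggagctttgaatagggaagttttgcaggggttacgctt

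The octamer TGACATCA began 45 bases before the Jun start and 119 bases before the Klf6 start, and 3.62% of 32851 RefSeq start regions of the same length hold it. The Jun window also has a MEF2 site 33 bases before the start, a motif held by 3.19% of all windows. Junb has TGACG at 106 bases before its RefSeq start (20.8% of all windows) and Klf6 an E-box at 43 bases before its start (7.15% of all windows). The RefSeq start of Junb lies upstream of the deposited gene, which begins at 84978718 on the minus strand. A TATA box (TATAAA, 13.6% of all windows) has its first base at position 1 of that RefSeq start. CCAAT occurred once in Jun, once in Junb and 4 times in Klf6, against 37.4% of all windows with at least 1 match. The full cAMP response element TGACGTCA (1.79% of all windows), the AP-1 site TGANTCA (7.81%) and the CArG box (1.63%), the core that serum response factor binds, had no match in these 3 windows on either strand, nor had the Egr site GCGNGGGCG (5.55%). The GC box GGGCGG, held by 35.7% of all windows, matched once in Jun and once in Klf6. TGACG forms part of TGACGTCA, and TGACATCA overlaps neither. The CAAT box, the TATA box, the MEF2 site, the octamer and the half-site were searched after the sequences had been read. A match is a string of letters, not a measured binding site. Of the 10 genes, 7 had an entry in the RefSeq table, and Egr1, Klf10 and Myc did not. Among the windows not printed, those of Fos, Atf3 and Klf4 held TGACG, that of Atf3 a MEF2 site and that of Klf4 an E-box. These motifs are therefore not particular to the 3 windows shown.

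The messages of these genes are also known for AU-rich stretches in the 3' untranslated region, which shorten the life of an mRNA. Windows of 30 bases with the most ATTTA pentamers are shown for Fos, Jun, Junb and Myc, since these carried the pentamer most densely, written as DNA in GENCODE M21 (GRCm38) with the pentamers in capitals. They lie at chr12:85477100-85477129 (plus strand), chr4:95049207-95049236 (minus strand), chr8:84977127-84977156 (minus strand) and chr15:61990134-61990163 (plus strand).
Fos: ttgtgttttcaATTTATTTAttaagatgga
Jun: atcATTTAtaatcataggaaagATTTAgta
Junb: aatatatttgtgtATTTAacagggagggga
Myc: ttaacagatttgtATTTAattgttttttta

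Over the whole 3' untranslated region, Fos held 4 pentamers in 815 bases (4.91 per kilobase), Myc 2 in 442 bases (4.53), Junb 2 in 485 bases (4.12) and Jun 4 in 1233 bases (3.24). Of 9185 evaluated genes with at least 100 bases of such sequence, 5.98% were as dense as Fos, 7.70% as dense as Myc, 9.60% as dense as Junb and 17.2% as dense as Jun. Klf10 (2.68 per kilobase), Atf3 (2.53), Klf6 (2.25), Jund (1.88), Egr1 (1.65) and Klf4 (1.02) were less dense, and the median gene had 1.36 per kilobase. The dense group therefore held Jun and Junb, with more reads in the knockout library, beside Myc, with fewer. Across these 9185 genes the median log2 ratio was 0.05 for 2713 genes with no pentamer and -0.16 for 1589 genes with 6 or more. Those medians were 0.04 and -0.05 after a correction for gene length, as the pentamer count moves with length (median untranslated region of 456 and 3245 bases). Genes are not independent replicates.

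In both libraries the Jun genes, Myc and Klf10 led the group and Atf3 was last, as the plot of levels by library shows. In the knockout the order by FPKM was Junb (13.5), Jun (9.53), Myc (5.80), Klf10 (3.87), Jund (3.05), Klf6 (2.56), Egr1 (1.19), Fos (0.873), Klf4 (0.593) and Atf3 (0.534). In the control it was Myc (9.54), Junb (6.89), Jun (4.77), Klf10 (3.66), Jund (2.27), Klf6 (1.26), Klf4 (0.712), Fos (0.582), Egr1 (0.520) and Atf3 (0.149). Myc ranked below Junb and Jun in the knockout and above them in the control, and Egr1 ranked above Fos and Klf4 in the knockout and below them in the control. Neighbours in the order that counting error does not separate were Klf10 and Jund, Jund and Klf6, Egr1 and Fos, Fos and Klf4, and Klf4 and Atf3 in the knockout, and Klf4 and Fos, and Fos and Egr1 in the control. The leading gene of each library lay in the upper part of the evaluated genes. A lower FPKM was held by 76.0% of evaluated genes than Junb in the knockout library and by 67.4% than Myc in the control library. Klf6 and Egr1 lay low, above 27.8% and 6.84% of evaluated genes in the knockout and 8.05% and 0.544% in the control.

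**Figure D1:**
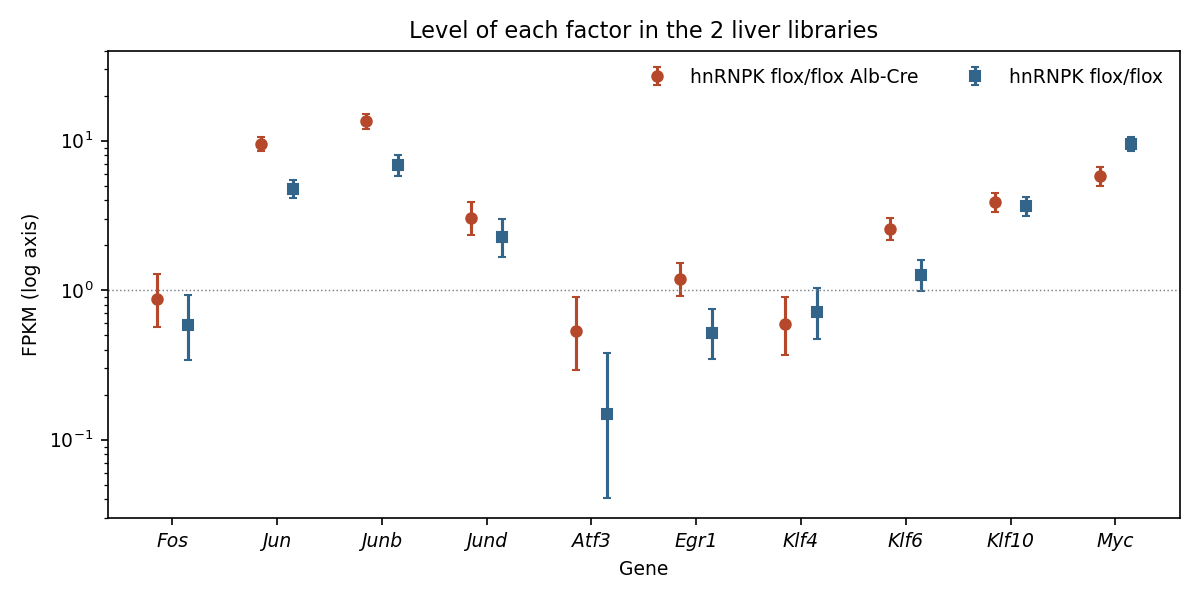
FPKM (log axis) of each gene in the knockout library (circles, left) and the control library (squares, right), with exact Poisson 95% intervals of the read count; the dotted line marks FPKM 1. Jun and Junb stand at 9.53 and 13.5 in the knockout against 4.77 and 6.89 in the control, and Myc at 5.80 against 9.54.

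Of the 10 genes, 7 reached the expression minimum, and Fos, Atf3 and Klf4 stayed below it. Jun, Egr1 and Klf6 were higher in the knockout library and none of the 7 was lower. Over all 9563 evaluated genes, 2.53% were at least 2-fold higher and 1.13% at least 2-fold lower. Egr1 was evaluated only through its knockout level, since its control level of FPKM 0.520 is under the minimum.

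Jun encodes c-Jun, the main transactivating partner in AP-1. This single-exon gene lies on the minus strand of mm10 chromosome 4, 95049034 to 95052222 (ENSMUSG00000052684). It had 370 reads in the knockout and 189 in the control. The knockout level was 2.01 times the control level (1.69 to 2.41), and 2.46% of evaluated genes had a log2 ratio as high as its 1.01. Junb, whose protein forms AP-1 dimers that often act more weakly than those of c-Jun, was next to it. It (ENSMUSG00000052837, minus strand of chromosome 8, 84976910 to 84978718) had 298 reads in the knockout and 155 in the control, a fold of 1.98 (1.62 to 2.42). Jun and Junb lay on either side of the threshold, and their folds differed by less than counting error, at a ratio of 1.02 (0.777 to 1.33). Jun was under the threshold with library totals alone (fold 1.998) and after the correction for gene length (1.97), so its call rests on these choices. The direction of Jun and Junb was the same under every scaling tried.

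Jund, whose protein is the Jun form that resting cells usually contain, had 62 reads in the knockout and 47 in the control (ENSMUSG00000071076, chromosome 8, 70698949 to 70700616, plus strand). Its FPKM was 3.05 in the knockout and 2.27 in the control, and the fold of 1.36 (0.914 to 2.03) was within the rule with an interval that includes 1. The Jun to Jund level ratio was 3.12 in the knockout and 2.10 in the control, and this ratio changed by 1.48-fold (0.953 to 2.30), so counting error does not separate Jund from Jun. Summed over Jun, Junb and Jund, the libraries had 730 reads in the knockout and 391 in the control. Antisense genes overlap Jun over 689 bases (Junos) and Jund over 919 bases (Gm11175), and without strand information their reads cannot be told apart from those of the Jun genes.

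Fos, the partner that gives AP-1 dimers with Jun proteins their stability, was scarce (ENSMUSG00000021250, chromosome 12, 85473890 to 85477273, plus strand). It had 25 reads in the knockout (exact Poisson 95% interval 16.2 to 36.9) and 17 in the control (9.90 to 27.2). The fold of 1.51 (0.785 to 2.98) allows a decrease as well as a near 3-fold increase. Per length, Jun stood above Fos in each library, with a Fos to Jun level ratio of 0.0916 in the knockout and 0.122 in the control. Atf3, a stress-induced factor that represses many of its targets as a homodimer, had 14 reads in the knockout and 4 in the control (ENSMUSG00000026628, chromosome 1, 191170296 to 191218039, minus strand). Its fold of 3.60 was the highest of the 10, but its interval runs over 1.13 to 15.0 and its level of FPKM 0.534 in the knockout was the lowest there.

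Egr1 encodes the zinc finger protein that answers serum and growth factor signals through serum response factor. It (ENSMUSG00000038418, plus strand of chromosome 18, 34859823 to 34864984) had 65 reads in the knockout and 29 in the control, a fold of 2.31 (1.47 to 3.70). Its log2 ratio of 1.19 was matched or passed by 1.66% of evaluated genes. Klf6, a ubiquitous Klf known as a growth suppressor and, in injured rat liver, as a stellate cell gene, had 137 reads in the knockout and 69 in the control (ENSMUSG00000000078, chromosome 13, 5861482 to 5870394, plus strand). Its fold was 2.04 (1.52 to 2.77), so the interval excludes 1 and includes values under the 2-fold threshold, as it does for Jun and Egr1.

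Klf10, also named TIEG1 for its induction by TGF-beta and a clock-controlled gene of liver sugar metabolism, was close to equal in the libraries. It (ENSMUSG00000037465, minus strand of chromosome 15, 38291463 to 38300706) had 197 reads in the knockout and 190 in the control. The fold was 1.07, with a counting interval of 0.869 to 1.31 that leaves out spread between animals. The Klf6 to Klf10 level ratio was 0.662 in the knockout and 0.346 in the control, a 1.91-fold change (1.33 to 2.77) that does not depend on library scaling. Klf4, a factor of epithelial differentiation and of pluripotent cells, had 22 reads in the knockout and 27 in the control (ENSMUSG00000003032, chromosome 4, 55527143 to 55532466, minus strand). Its fold was 0.838 (0.455 to 1.53), and a 1.5-fold difference in either direction was not detectable at this depth.

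Myc encodes the basic helix-loop-helix zipper factor of cell growth and is itself a classical immediate early gene. It (ENSMUSG00000022346, plus strand of chromosome 15, 61985391 to 61990374) had 192 reads in the knockout and 322 in the control, the opposite direction from Jun, Junb, Egr1 and Klf6. The fold was 0.613 (0.510 to 0.736), a log2 ratio of -0.70 that 3.05% of evaluated genes fell to or below. This is within the 2-fold rule and past a 1.5-fold one, where 5.37% of evaluated genes were lower and 6.16% higher. The Jun to Myc level ratio was 1.64 in the knockout and 0.50 in the control, a 3.28-fold change (2.54 to 4.25), and the Egr1 to Myc ratio changed by 3.76-fold (2.29 to 6.26). Of the 9 pairs of Myc with another of the genes, 8 had a ratio change whose interval, not adjusted over pairs, excludes 1, the exception being Klf4. All 9 share the same Myc reads, so they restate the Myc fold and are not separate results. Among all 45 pairs, which include Fos, Atf3 and Klf4 below the expression minimum, there were 18 such changes. The share of such changes among pairs of all evaluated genes was not computed.

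**Figure D2:**
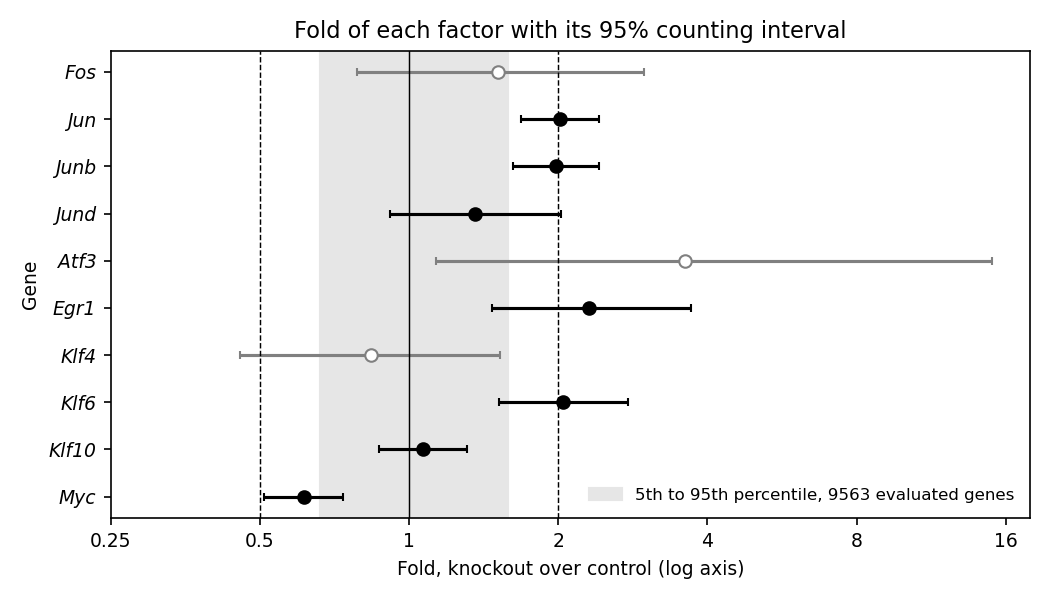
Fold of knockout over control (log axis) with its 95% counting interval; filled points reached the expression minimum, open points did not, dashed lines mark 0.5 and 2, and the grey band spans the 5th to 95th percentile of all evaluated genes (0.662 to 1.59). Jun, Junb, Egr1 and Klf6 lie to the right of the band near a fold of 2, and Myc to its left at 0.613.

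**Figure D3:**
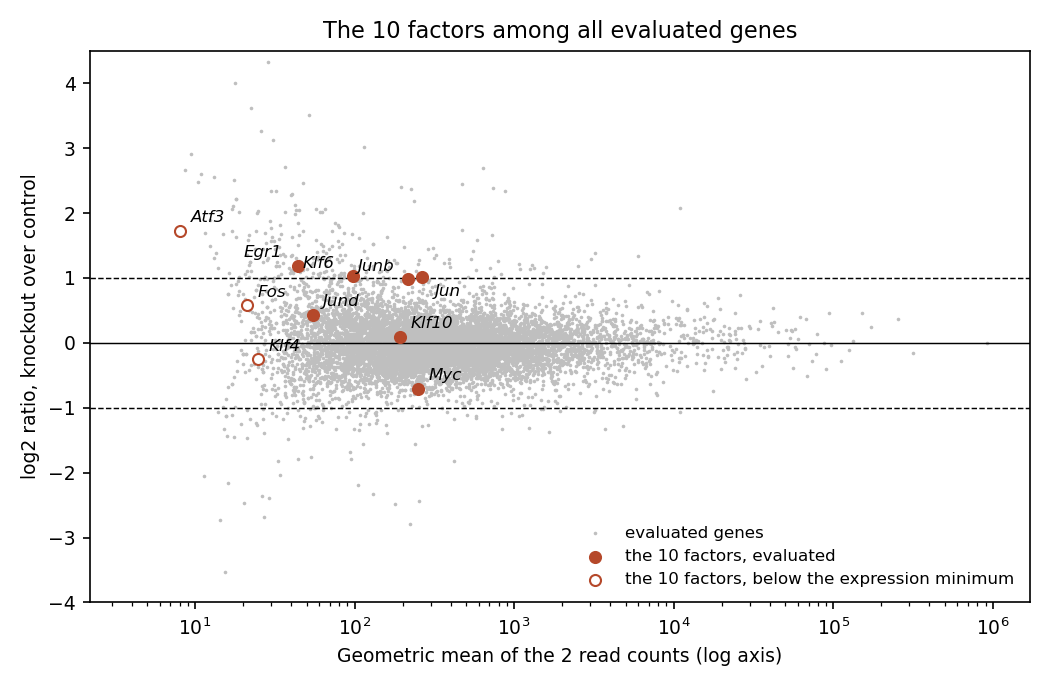
The log2 ratio of knockout over control against the geometric mean of the read counts (log axis) for all evaluated genes (grey) and the 10 factors (red, open below the expression minimum); dashed lines mark the 2-fold rule and 5 evaluated genes lie outside the plotted range. The 10 lie toward low read counts, where the grey cloud is widest.

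The scatter against read counts shows that the ratio spreads more widely where counts are low. Among the 4980 evaluated genes with 50 to 400 reads in the higher library, a range that holds Jun, Junb, Jund, Egr1, Klf6, Klf10 and Myc, 3.01% were at least 2-fold higher, 7.61% at least 1.5-fold higher and 5.64% at least 1.5-fold lower. A share of 2.53% over all evaluated genes or 3.01% in this range is the background for the 3 called genes, and the list of 10 was drawn up with these results known.

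Other immediate early and rapid response genes had 27 of 38 members evaluated. Of these, 3 were higher and 0 lower, beside 2.53% and 1.13% of all evaluated genes. Their median log2 ratio was 0.25, beside -0.03 over all evaluated genes, and 17 of 27 were above 0, beside 46.0% of all evaluated genes. Ier3 and Gadd45b passed the minimum only through the knockout library, so they had to lie above 0. Gadd45b had FPKM 1.03 in the knockout and 0.709 in the control. Ccn1, a matrix-associated signalling protein induced by serum and by YAP, had 107 reads in the knockout and 44 in the control (2.50-fold, 1.75 to 3.64). Sik1, a salt-inducible kinase switched on by cAMP, had 296 reads in the knockout and 147 in the control (2.07-fold, 1.69 to 2.54). Ier3, a survival gene, had 20 reads in the knockout and 7 in the control (2.94-fold, 1.19 to 8.23), and was evaluated only through its knockout level, its control level being FPKM 0.498. Gadd45g, a growth-arrest gene, had 526 reads in the knockout and 1058 in the control (log2 ratio -0.97), just within the rule, and the survival gene Mcl1 was at 0.02. The class thus held genes on either side of 0, 10 of the 27 being below it. The orphan receptor gene Nr4a1, chosen after its values were seen and below the expression minimum, had 29 reads in the knockout and 26 in the control.

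Other AP-1 and related leucine zipper genes showed no call in 8 evaluated of 14, with a median log2 ratio of -0.23 (-0.10 after the correction for gene length). Maff, a small Maf protein gene, had 106 reads in the knockout and 78 in the control (0.48), and Jdp2, a Jun dimerization partner that represses AP-1, had 32 in the knockout and 48 in the control (-0.54). Mafg was at -0.39 and Atf2, a partner of c-Jun on cAMP response elements, at 0.19. Fosb and Fosl1, chosen after their values were seen, had 0 reads in both libraries. Of the inputs to immediate early genes (receptors, MAP kinases, serum response factor, its cofactors and CREB), 0 of 28 evaluated genes were higher and 1 was lower, with a median log2 ratio of -0.23 and 4 of 28 above 0. Over all evaluated genes 2.53% were higher, 1.13% lower and 46.0% above 0. Map2k6, an activator of p38, had 69 reads in the knockout and 170 in the control (log2 ratio -1.25). Map2k3, the other p38 activator, was at -0.66, the serum response factor cofactor Mrtfb at -0.60, Elk4 at -0.54 and the JNK gene Mapk9 at 0.01. The median of this list was -0.13 after the correction for gene length.

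Among other Klf and Sp genes, 12 of 19 were evaluated, 0 were higher and 2 lower, with a median log2 ratio of -0.11. Over all evaluated genes 2.53% were higher and 1.13% lower. Klf12, a repressor, had 182 reads in the knockout and 450 in the control (log2 ratio -1.26). Klf1, the erythroid Klf, had 30 reads in the knockout and 64 in the control (-1.04). The summed FPKM of 5 erythroid markers, of which Hbb-bt was higher and 4 were above 0, was 357 in the knockout and 223 in the control, and its part in the Klf1 value was not tested. Klf11, the closest relative of Klf10, had 126 reads in the knockout and 82 in the control (0.66), Sp2 was at -0.94, and Klf15, the abundant liver Klf of amino acid and glucose metabolism, at 0.02.

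Targets of the factors were mixed, and are set beside shares of 2.53% higher and 1.13% lower over all evaluated genes. Of 6 evaluated AP-1 targets of 14, 2 were higher and 0 lower (median log2 ratio 0.25). These were Ccnd1, the cyclin D1 gene, with 504 reads in the knockout and 100 in the control (5.18-fold, 4.18 to 6.49), and Spp1, the osteopontin gene, with 1078 reads in the knockout and 204 in the control (5.44-fold, 4.68 to 6.34). Spp1 is also a ductular marker, and the part of ductular cells, whose marker sums are given further on, was not tested. The heme oxygenase gene Hmox1 was at -0.56, the membrane protease gene Mmp14 at 0.40 and the metallothionein gene Mt1 at 0.11. Of 7 evaluated Egr1 corepressors and targets, 1 was higher and 0 lower (median 0.15). This was the adhesion gene Icam1, with 129 reads in the knockout and 40 in the control (3.32-fold, 2.31 to 4.86), evaluated only through its knockout level, its control level being FPKM 0.738. F3, the tissue factor gene, was at 0.89, with the growth factor gene Pdgfa at 0.70 and Tgfb1 at 0.13.

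For the Myc network no gene was called, beside 2.53% of all evaluated genes higher and 1.13% lower. Of 16 evaluated partners and antagonists, the relative Mycl had the largest difference, with 119 reads in the knockout and 215 in the control (log2 ratio -0.81). The sensor Mlxip was at -0.44, the antagonists Mnt and Mxd1 at -0.38 and 0.39, and Mlx at 0.04, with a list median of -0.11. All 30 listed Myc targets in ribosome making and growth were evaluated, with 0 higher, 0 lower, a median of 0.01 and a range of -0.53 to 0.41. Polr1b, a subunit of RNA polymerase I, was at -0.53, the ribosome assembly gene Wdr43 at -0.44, Ccnd2 at -0.41, the transferrin receptor gene Tfrc at 0.41 and the chaperonin gene Hspd1 at 0.00. Set beside Myc at -0.70, this target list was centred close to the all-gene median of -0.03.

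Of 12 evaluated genes that control the decay of AU-rich messages, 0 were higher and 0 lower, with 1 of 12 above 0 and a median log2 ratio of -0.30 (-0.17 after the length correction). Over all evaluated genes 2.53% were higher, 1.13% lower and 46.0% above 0. Zfp36, which encodes the decay factor tristetraprolin and is also on the list of rapid response genes, had 807 reads in the knockout and 1109 in the control (log2 ratio -0.42). Its relative Zfp36l2 was at -0.39, the exonuclease gene Xrn1 at -0.53, the deadenylase scaffold gene Cnot1 at -0.38 and Elavl1, which encodes the stabilising protein HuR, at -0.06. Xrn1 passed the minimum only through the control library (FPKM 1.05, against 0.720 in the knockout), so it had to lie below 0.

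**Figure D4:**
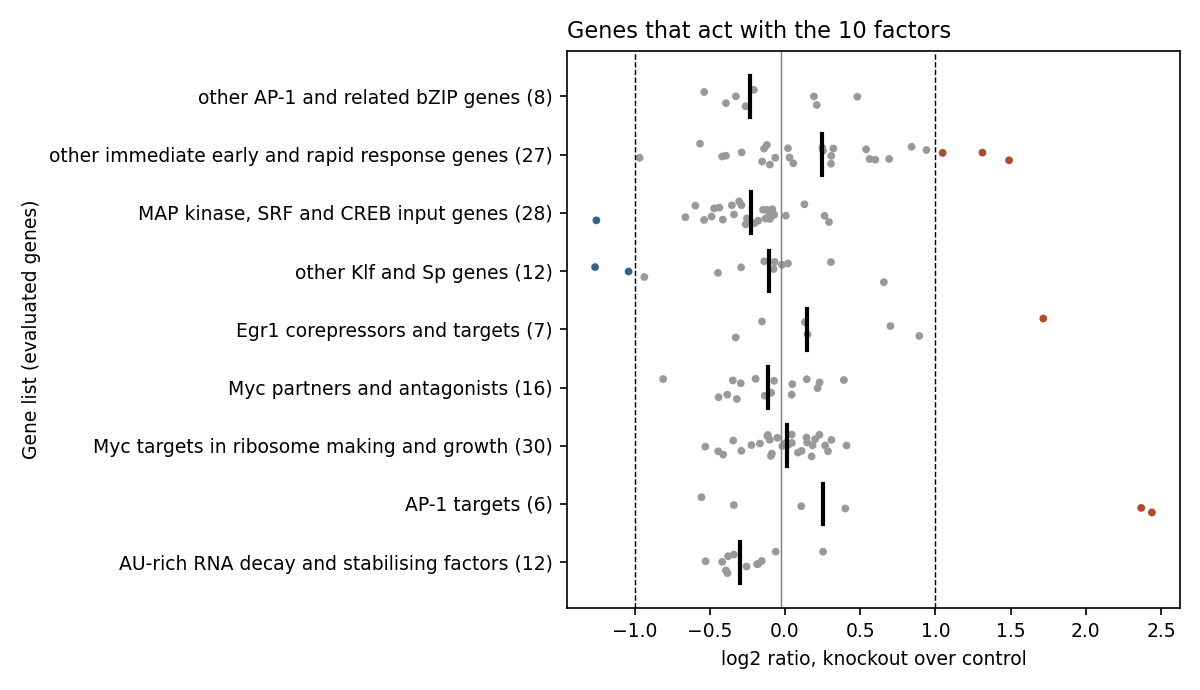
The log2 ratio of knockout over control for each evaluated gene of 9 lists (red called higher, blue called lower, grey within the rule), with the list median as a black bar, the all-gene median as a grey line and the 2-fold rule as dashed lines. The rapid response list has a median of 0.25 with 3 genes called higher, and the Myc target list a median of 0.01 with none called.

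Markers of other liver cells moved between the libraries as well, and in bulk liver a change in the number of cells of a type cannot be told apart from a change in RNA per cell. Of 7 evaluated ductular markers of 9, 5 were higher (Krt19, Epcam, Cd24a, Spp1 and Bicc1) and 7 above 0, and the summed FPKM of all 9 was 74.9 in the knockout and 16.5 in the control. Krt19, Epcam, Cd24a and Bicc1 had control levels under FPKM 1 and were evaluated only through the knockout library, so their count has to lie on that side. Over all evaluated genes 2.53% were higher and 1.13% lower. Of 11 stellate cell and fibroblast markers, 3 were higher (Col1a1, Col3a1 and Lum) and 10 above 0, with a summed FPKM of 60.2 in the knockout and 40.03 in the control. Col1a1, Col1a2 and Pdgfra also passed the minimum only through the knockout library, so they had to lie above 0. Of 11 macrophage markers 1 was lower (Timd4), with a summed FPKM of 176 in the knockout and 194 in the control, and for 9 endothelial markers, none of them called, the sum was 83.9 in the knockout and 94.3 in the control. None of 10 hepatocyte markers was called, their median log2 ratio was -0.01, and their summed FPKM was 53767 in the knockout and 51065 in the control, far above the sums of the other lists. Lymphocyte markers summed to FPKM 1.20 in the knockout and 1.19 in the control, and 5 of 6 neutrophil markers had 0 reads in both. Jun, Junb, Egr1 and Klf6 are expressed in many liver cell types, and the part of cell type markers in their values was not tested.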

How the data were processed

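The authors deposited whole-number read counts per gene and FPKM values for both libraries. The tool and build named per the submitters' processing notes are Bowtie2 2.4.2 and mm10, while the counting program, its annotation, multi-mapping and strand settings were not stated. The deposited FPKM equals count, gene length and column total combined for 100% of genes (relative tolerance 1e-06). Columns ending in KO and WT were matched to the samples with and without Alb-Cre.

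Counts were scaled by library total and TMM factor (edgeR 4.0.16 in R 4.3.3; 0.996 for the knockout, 1.004 for the control), and log2 ratios used 0.5 added counts (scipy 1.17.1 and pandas 2.3.3 in Python 3.11.15). With 1 library per genotype a size rule stood in for a test. DESeq2 1.42.0 supplied an alternative scaling. Ratios between genes carry exact conditional 95% intervals. The length correction subtracted the running median over 401 genes. Beside the 10 genes, each list's called genes, its 4 largest differences and the smallest were named, with other genes marked as chosen later. Some genes that this rule takes are not reported here. Members and lists were chosen with earlier results of these data known. Gene coordinates equal GENCODE M21 for 9 of the 10 genes. For Junb that annotation runs from 84974484, with 2301 exonic bases against 1809 deposited. The lymphocyte gene Igkc and protein sequences were not analysed here. The calculation was tested on simulated data.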

Additional observations from a re-analysis of the deposited data

How the results depend on the processing

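The log2 ratio of each of the 10 genes kept its direction under 8 other settings of scaling, added count and length or GC correction, and stayed inside its counting interval in all 80 such values. These are not separate checks, because every setting reuses the same read counts and the TMM factors are close to 1. Library totals and FPKM ratios gave the same folds. Jun ranged over 0.94 to 1.01, Junb over 0.84 to 0.98, Egr1 over 1.08 to 1.22, Klf6 over 0.98 to 1.05, Myc over -0.80 to -0.69 and Atf3, at the fewest reads, over 1.10 to 1.84. The number of the 10 called higher was 3, and was 2 without TMM factors, from FPKM ratios and after either correction, where Jun fell short (fold 1.998, 1.998, 1.97 after the length correction and 1.92 with GC content added). It was 2 with 100 reads required, 4 with no expression filter, 4 at 1.5-fold and 0 at 3-fold, and 1 of the 10 (Myc) was lower at 1.5-fold. At 1.5-fold the rapid response list had 7 higher and 1 lower, the inputs 3 lower, other Klf and Sp genes 1 higher and 3 lower, the Egr1 list 3 higher and Myc partners 1 lower. Over all evaluated genes 6.16% were at least 1.5-fold higher and 5.37% at least 1.5-fold lower. Other Klf and Sp genes had 1 lower with 100 reads required and 3 with the length and GC correction, against 2. The rapid response list had 1 lower after the length correction and 1 with GC content added, where Gadd45g passed the rule (log2 ratio -1.13 after the length correction). The GC correction was added after the data were seen. No replicate could be left out, as each genotype has 1 library. No paired analysis was possible because each genotype has 1 library. Depth limits Fos, Atf3 and Klf4 most, at 42, 18 and 49 reads over the libraries.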
